A study of Rattus norvegicus with 19 samples.

Results

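Genes whose signal in deep motor cortex was higher on the first day after a spinal lesion than in controls and at day 3 are described here. A probe set was a member if it was annotated with 1 gene symbol, if its 3 day 1 arrays all lay above its 4 control and 3 day 3 arrays, and if its day 1 mean was at least 0.35 log2 units above both the control and the day 3 mean. Of 20826 probe sets with 1 symbol, 70 met these conditions (0.336%). Of these, 17 were set aside because they belong to 14 of 16 genes that were left out by name. The 16 were Agt, Igfbp6, Ifitm3, Crabp2, Lbp, Cp, Steap4, Cebpd, Cebpb, Cd14, Chi3l1, Mt2A, Gfap, S1pr3, Gpnmb and Atf3. That left 53 probe sets of 50 genes, or 0.254% of the probe sets with 1 symbol. Acer2, Slc6a20a and Dusp6 have 2 member probe sets each. The members were chosen by their control, day 1 and day 3 values, so at those times the values are a description and no test of them supports anything. The opposite rule, with day 1 below, was met by 20 probe sets.

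The 19 arrays were made from total RNA of the motor cortex of adult female Fischer 344 rats, an inbred strain, weighing 150 to 200 g. The groups were control (labelled time 0, n = 4) and days 1, 3, 7, 14 and 49 after a wire-knife lesion of the dorsal funiculus at cervical segment 3 (n = 3 each). That lesion cuts the main corticospinal tract, whose cell bodies lie in layer V, and only the deeper part of the cortex, which holds that layer, was dissected. Whether the controls were operated on without a lesion is not given in the labels, so lesion and operation cannot be told apart. The tissue was sampled whole, so more cells of a type and more RNA per cell cannot be told apart either. No detection call comes with the values; the 13 neuron and layer V markers measured had array means of 8.68 to 8.75 log2 units at day 1 and 8.63 to 8.82 in controls.

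An operation on the spinal cord brings an acute systemic response as well as axotomy. Circulating glucocorticoids and cytokines are known to act within hours on brain vessels, perivascular macrophages and astrocytes, and many genes switched on in this way return within days. This is background and was not tested as a cause of the values below. Among the members, Spon2 encodes mindin, a secreted matrix protein that binds microbial surfaces and integrins. Pla1a encodes a phospholipase that releases lysophosphatidylserine, and Lgi4 a secreted ligand of ADAM receptors that peripheral glia of mice need in order to myelinate.

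RefSeq promoters of the GRCr8 build were matched to 36 of the 50 genes and scanned on both strands from 250 bases before to 50 bases after the start site. The 250 bases before the start of 4 genes are printed as examples with and without a motif. They are 4 of 36 and do not show what the pulse genes share. Lgi4 and Prodh are among the genes with no promoter matched. Spon2 (chr14:81736466-81736715, plus strand) has the palindromic core of a glucocorticoid response element in capitals. Pla1a (chr11:75825376-75825625, plus strand) has none of the capitalised motifs. C1qb (chr5:154407828-154408077, minus strand) has a full glucocorticoid response element in capitals, and Maff (chr7:112792537-112792786, plus strand) has an E-box and then a cyclic AMP response element in capitals.
Spon2: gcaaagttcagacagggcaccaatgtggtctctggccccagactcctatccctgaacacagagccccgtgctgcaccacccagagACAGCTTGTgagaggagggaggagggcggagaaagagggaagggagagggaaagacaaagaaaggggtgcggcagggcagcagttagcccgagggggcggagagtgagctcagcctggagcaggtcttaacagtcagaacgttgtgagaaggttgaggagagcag
Pla1a: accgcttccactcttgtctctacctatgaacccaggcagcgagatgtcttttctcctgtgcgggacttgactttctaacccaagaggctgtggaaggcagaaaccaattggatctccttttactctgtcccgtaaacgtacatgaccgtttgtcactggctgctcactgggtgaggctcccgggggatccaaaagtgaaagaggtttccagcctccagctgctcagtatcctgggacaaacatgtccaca
C1qb: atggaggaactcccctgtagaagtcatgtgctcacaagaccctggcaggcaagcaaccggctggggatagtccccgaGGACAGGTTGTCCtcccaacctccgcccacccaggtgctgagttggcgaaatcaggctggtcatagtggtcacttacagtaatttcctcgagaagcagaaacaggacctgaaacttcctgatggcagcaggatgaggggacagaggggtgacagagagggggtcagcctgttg
Maff: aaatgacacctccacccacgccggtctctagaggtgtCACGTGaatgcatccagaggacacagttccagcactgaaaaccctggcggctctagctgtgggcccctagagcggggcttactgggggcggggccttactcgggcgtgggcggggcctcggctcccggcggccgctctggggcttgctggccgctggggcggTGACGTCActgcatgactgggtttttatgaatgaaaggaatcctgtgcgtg

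The scan gave shares for the members and for all 27457 promoters of the table, which serve as a description only. The palindromic core of the glucocorticoid response element, ACANNNTGT, lay in 16.7% of member promoters (C1qb, Cldn11, Dusp6, Nfil3, Spon2 and Tmod2), against 6.60% of all promoters. The full element, which adds a G and any base before the core and any base and a C after it, lay in 2.78% (C1qb), against 0.422% of all. The C/EBP motif TTGCNNAA lay in 16.7% (Crip1, Enpep, Gadl1, LOC102548205, Pvr and Slc50a1), against 10.5% of all, and its relaxed form TTNCNNAA in 36.1%, against 40.8% of all. The cyclic AMP response element TGACGTCA lay in 8.33% (Abcg2, Maff and Vgf), against 1.91% of all. The metal response element TGCNCNC lay in 63.9%, against 50.1% of all, and a relaxed form of the NF-kB motif, which every match of the stricter form also meets, in 66.7%, against 48.5% of all. The AP-1 motif TGANTCA lay in 0%, against 7.33% of all, and the stricter NF-kB motif in 0%, against 0.372% of all. The STAT motif TTCNNNGAA lay in 5.56% (Crip1 and Maff), against 8.68% of all, and its stricter form TTCCNGGAA, which the first contains, in 2.78% (Maff), against 1.24% of all. The E-box CACGTG lay in 8.33% (Cdh15, Maff and Vgf), against 6.65% of all, and the TATA box TATAAA in 8.33% (Inmt, Plvap and Vgf), against 14.3% of all. Median GC content of the 250 bases was 56.2% in member promoters and 52% in all promoters.

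Pulse height is given as the smaller of 2 differences, day 1 minus control and day 1 minus day 3, in log2 units, where 1 unit is a doubling of the signal. Heights ran over the members between 0.35 and 1.00, with a median of 0.44. Day 1 minus control had a median of 0.46 and reached at least 0.5 in 19 of 53 probe sets and at least 1 in 1. The rule did not ask for a return to control. Day 3 minus control had a median of -0.04 and ran from -0.59 to 0.24. Just inside the threshold stood Cryab (0.352), Mdfic (0.353), Nfil3 (0.361), Etv4 (0.361) and Slc50a1 (0.363). Just outside stood Lrg1 (0.347), Npas2 (0.344), Ddit4 (0.338), Hrct1 (0.336) and Htra1 (0.334), so the edge of the group is not a gap. Without any minimum height, 466 probe sets kept the same order of arrays (2.24%). By mean over all arrays, 43 of the 53 members lay at or above the median probe set. Below it lay Pla1a, Cd163, Nr1h3, Maff, Etv4, Gadl1, Tnfrsf11b, Aldh1a3, Frzb and LOC102548205, where no detection call tells signal from background. All signals below are log2 values and are compared between groups for 1 probe set, never between probe sets.

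Across the days, the mean of the 53 probe sets on each array, less the control mean, was 0.45, 0.55 and 0.52 at day 1, against -0.05 to 0.05 on the 4 control arrays. At day 3 it was -0.10, -0.06 and -0.01, and at day 7 it was -0.01, -0.03 and 0.07. At day 14 it was 0.05, 0.25 and -0.02, and at day 49 it was -0.07, -0.15 and 0.20. The spread between arrays was therefore wider at days 14 and 49 than at days 3 and 7. The values 0.25 and -0.15 come from replicate 2 of day 14 and replicate 2 of day 49, which stand apart from all others. Their median correlations with the other arrays were 0.931 and 0.968, against 0.994 to 0.997 for the other 17 arrays. The day 14 one also had a beta-actin signal 2.24 log2 units higher at the 3' than at the 5' end and a GAPDH one 3.18 units higher, against at most 1.29 and 0.196 on the 17. For the day 49 one they were 0.845 and -0.00597. Replicate 3 of day 49, where the members were 0.20 above control, had the 1.29. The part of RNA quality in the later values was not tested, and the differences of day 14 and day 49 named below that move by over 1.5 times without these arrays are given with and without them.

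**Figure D1:**
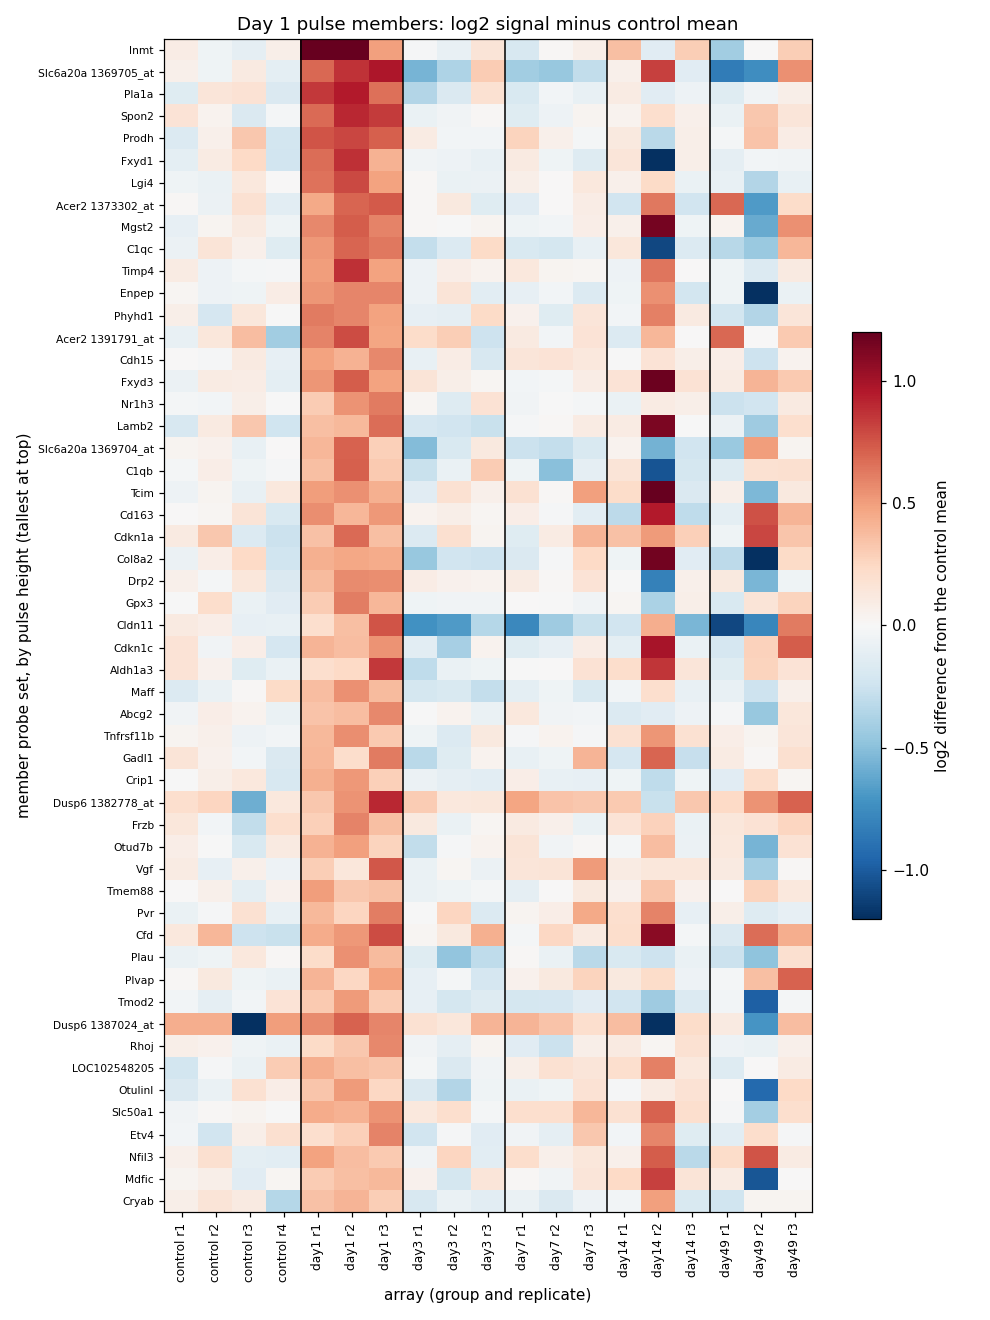
Heat map of the 53 member probe sets (rows, ordered by pulse height) on the 19 arrays (columns, ordered by group). Colour is the log2 signal minus the mean of the 4 control arrays. All 53 probe sets are above every control array on each day 1 array, as the rule requires, and replicate 2 of day 14 and of day 49 differ from the arrays beside them.

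**Figure D2:**
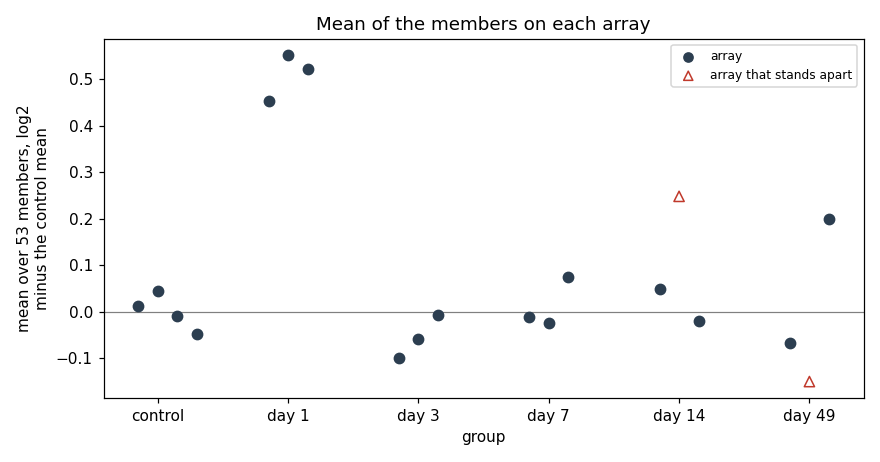
Mean over the 53 member probe sets on each array, in log2 units relative to the control mean, with 1 point per array. Day 1 arrays lie at 0.45 to 0.55, day 3 arrays at -0.10 to -0.01, and later arrays between -0.15 and 0.25.

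The largest pulse belonged to an enzyme gene. Inmt encodes an N-methyltransferase of tryptamine and other amines. Its signal was 7.36, 7.30 and 6.55 on the 3 day 1 arrays, against 6.15, 6.01, 5.95 and 6.13 in controls, a mean 1.01 log2 units (2.02-fold) higher at day 1. It was 6.05, 5.97 and 6.22 at day 3, 5.87, 6.07 and 6.13 at day 7, 6.42, 5.92 and 6.35 at day 14, and 5.64, 6.06 and 6.35 at day 49. The third day 1 array lay 0.81 below the highest, the widest range of any member at day 1, yet above every array of the other days.

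Enzymes of lipids and small molecules made up 9 genes (10 probe sets), with a median of 0.62 above control at day 1. Prodh encodes the mitochondrial enzyme that begins proline breakdown, and its signal was 7.68, 7.73 and 7.65 at day 1, against 6.76, 6.99, 7.25 and 6.71 in controls. Pla1a (probe set 1370445_at) was 6.32, 6.42 and 6.13 at day 1, against 5.33, 5.61, 5.65 and 5.30 in controls, and 5.12, 5.30 and 5.65 at day 3. Its later arrays all lay between 5.29 and 5.57, within the control range or just below it. Acer2, a Golgi ceramidase, was 0.63 and 0.62 above control by its 2 probe sets. Mgst2, a membrane glutathione transferase that can also form leukotriene C4, was 0.63 above control, and Phyhd1, an oxygenase related to phytanoyl-CoA hydroxylase, 0.56 above control. The remaining 3 genes were Gpx3, a secreted glutathione peroxidase (0.44), Aldh1a3, which forms retinoic acid (0.43), and Gadl1, an amino acid decarboxylase (0.41).

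Transporters and regulators of ion pumps made up 5 genes (6 probe sets). Slc6a20a encodes a carrier of proline and other imino acids. By probe set 1369705_at its signal was 7.86, 8.04 and 8.14 at day 1, against 7.23, 7.11, 7.28 and 7.06 in controls, and by 1369704_at it was 7.15, 7.45 and 7.04 at day 1, against 6.79, 6.80, 6.66 and 6.75 in controls. Day 3 arrays were widely spread in both Slc6a20a probe sets, at 6.61, 6.80 and 7.48 for 1369705_at and at 6.23, 6.57 and 6.87 for 1369704_at. Fxyd1, or phospholemman, and Fxyd3 encode small subunits that tune the sodium pump, and they were 0.66 and 0.58 above control at day 1. Abcg2, a drug efflux pump of the blood-brain barrier, was 0.43 above control, and Slc50a1, a sugar carrier, 0.47.

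Secreted and matrix proteins and proteases made up 10 genes, with day 1 differences of 0.38 to 0.81. Spon2 (1370847_at) was 6.25, 6.47 and 6.41 at day 1, against 5.72, 5.61, 5.39 and 5.54 in controls. It was 5.48, 5.52 and 5.58 at day 3, 5.42, 5.50 and 5.60 at day 7, 5.61, 5.77 and 5.62 at day 14, and 5.49, 5.89 and 5.71 at day 49. The highest of the later arrays, at 5.89, stayed below the lowest day 1 array. Lgi4 (1381374_at) was 9.23, 9.37 and 9.06 at day 1, against 8.53, 8.50, 8.70 and 8.59 in controls, and its arrays of all later days lay between 8.23 and 8.81. Timp4, an inhibitor of matrix metalloproteinases, was 0.62 above control, Enpep, the aminopeptidase that trims angiotensin II, 0.57, and Lamb2, a laminin chain of basement membranes, 0.47. Col8a2 (0.44), a collagen chain, Tnfrsf11b (0.42), the decoy receptor osteoprotegerin, Frzb (0.42), a secreted Wnt antagonist, Vgf (0.39), a neuropeptide precursor, and Plau (0.38), the urokinase plasminogen activator, completed the set.

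**Figure D3:**
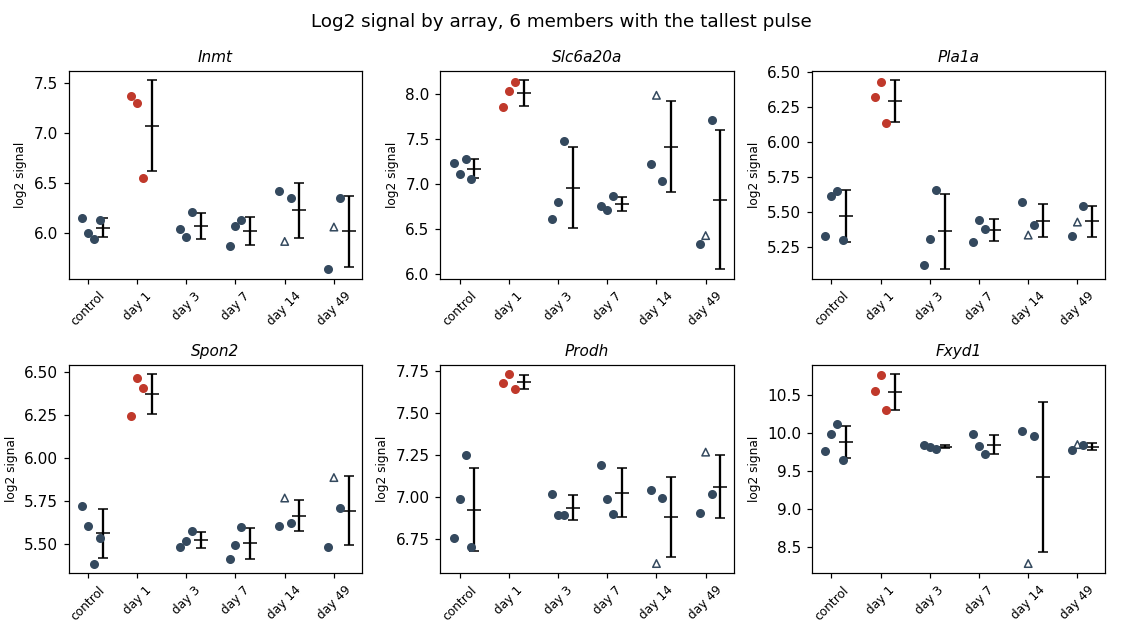
Log2 signal by array of the 6 genes with the tallest pulses (Inmt, Slc6a20a by 1369705_at, Pla1a, Spon2, Prodh and Fxyd1), with time groups from control to day 49 on the horizontal axis. Points are arrays, bars are mean ± SD, and open triangles are the 2 arrays that stand apart. In each panel the 3 day 1 arrays lie above all control and day 3 arrays, and in Slc6a20a a day 14 array again lies among them.

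Complement and macrophage genes made up 5 members. C1qc and C1qb encode chains of the complement starter C1q, made in brain mainly by microglia. C1qc was 7.36, 7.53 and 7.46 at day 1, against 6.76, 6.99, 6.90 and 6.69 in controls, and C1qb was 6.87, 7.22 and 6.82 at day 1, against 6.49, 6.59, 6.46 and 6.49 in controls. Cd163, the haemoglobin scavenger receptor of perivascular macrophages, was 0.49 above control, and so was Nr1h3, the liver X receptor alpha. Cfd, complement factor D, was 0.58 above control, but its control arrays ranged over 5.09 to 5.75 and the lowest day 1 array was 5.80. The 13 markers of microglia and macrophages, C1qb and C1qc among them, had array means of 5.89 to 6.12 at day 1 and 5.83 to 5.92 in controls, and their part in these values was not tested.

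Regulators of the cell cycle, transcription and signalling were the most numerous, with 11 genes (12 probe sets) at 0.35 to 0.62 above control. Cdkn1a and Cdkn1c encode the cell cycle inhibitors p21 and p57, and they were 0.46 and 0.44 above control. Maff, a small Maf transcription factor, was 4.83, 5.01 and 4.85 at day 1, against 4.30, 4.38, 4.47 and 4.69 in controls. Nfil3 and Etv4, a bZIP and an ETS transcription factor, stood at the edge of the threshold. In Dusp6, the phosphatase that switches off ERK kinases, control replicate 3 was low in both probe sets. By 1387024_at it was 8.33, 8.46 and 8.34 at day 1, against 8.19, 8.19, 6.39 and 8.26 in controls, and by 1382778_at it was 7.80, 8.02 and 8.38 at day 1, against 7.68, 7.74, 6.89 and 7.60 in controls. With that control array left out, the day 1 differences were 0.16 by 1387024_at, which no longer met the rule, and 0.39 by 1382778_at. Tcim (0.49), Otud7b (0.39), a deubiquitinase, Tmem88 (0.39), an inhibitor of Wnt signalling, Otulinl (0.36) and Mdfic (0.35) made up the rest.

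Genes of adhesion, junctions, vessels and the cytoskeleton made up 7 members, at 0.38 to 0.50 above control. Drp2, a dystrophin relative, was 9.15, 9.34 and 9.33 at day 1, against 8.83, 8.74, 8.91 and 8.59 in controls. Cdh15, the cadherin first described in muscle, was 8.21, 8.14 and 8.30 at day 1, against 7.73, 7.71, 7.83 and 7.63 in controls. Cldn11, the tight junction protein of myelin, Pvr, an adhesion receptor, Plvap, a protein of endothelial diaphragms, Rhoj, and Tmod2, a neuronal capping protein of actin filaments, were the others. Of 13 endothelial and pericyte markers, which include Abcg2, 10 were higher at day 1, with array means of 6.67 to 6.81 at day 1 and 6.54 to 6.64 in controls. The part of vessel content in the values of Abcg2, Plvap and Rhoj was not tested. Crip1, a LIM protein, Cryab, the chaperone alphaB-crystallin, and LOC102548205 fell in none of these sets and were 0.35 to 0.41 above control.

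Within day 1, the arrays did not contribute equally. Replicate 2 was the highest for 28 of 53 probe sets, replicate 3 for 19 and replicate 1 for 6, and the range over the 3 arrays had a median of 0.24. With each of the 10 arrays of the rule left out in turn, 27 members met it every time and 26 dropped out at least once. Leaving out day 1 replicate 2 cost 11 members, C1qb, Cdkn1a and Plau among them, and leaving out replicate 3 cost 12, Cldn11, Vgf, Plvap and Cfd among them. Most member genes had no second probe set outside the group, but 14 genes had 19. Of these 19, 15 were higher at day 1 than in controls (median 0.20, lowest -0.06, highest 0.38) and 1, of Frzb, kept the order of arrays. The other Enpep probe set (1368513_at) was 0.03 lower at day 1 than in controls, while the member (1368512_a_at) was 0.57 higher.

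Tested with limma over all 31042 probe sets, the day 1 contrast that the rule used called 3 members, against 0.0354% of all probe sets: Spon2 (adjusted p = 0.00768), Lgi4 (0.0217) and Pla1a (0.0242). Day 3 against day 1 called the same number, against 0.0258% of all. Nothing is read from these counts. They were 21 (against 0.219%) and 22 (against 0.203%) without the 2 arrays that stand apart, and 0 for both without day 1 replicate 2. The day 1 count was 1 without day 1 replicate 1 (against 0.0161% of all) or without control replicate 1, 2 or 4 (against 0.0193%, 0.0193% and 0.00644%). The same-numbered day 1 and control arrays deviated together, and with the replicate number as a block the day 1 count was 1 (against 0.00966%).

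By day 7 the members lay near control. Against control the 53 probe sets had a median difference of 0.02, with values between -0.49 and 0.38 and 31 above 0, beside a median of -0.00160 over all probe sets with 1 symbol. None was called, nor was any probe set in the table (0%), and 0 members had an unadjusted p under 0.05 in limma, against 0.886% of all. Without the 2 arrays that stand apart at other days, 4 members did (7.55%), against 4.89% of all. All control arrays had entered the rule, and the day 7, 14 and 49 contrasts share them. For the markers the 95% confidence interval of the day 7 difference from control reached 0.15 for Spon2, 0.16 for Pla1a and 0.27 for Lgi4. In 45 of 53 probe sets all day 7 arrays lay below all day 1 arrays (6.72% of all probe sets with 1 symbol), which restates in part how day 1 was chosen.

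Some members had day 7 arrays that did not overlap the control arrays, though with all arrays none had an unadjusted p under 0.05 in limma. All 3 arrays were above all control arrays in 4 members (7.55%, background 2.59%) and below them in 5 (9.43%, background 5.2%). These are few probe sets, and nothing is read from the counts. Above were Dusp6 by 1382778_at (0.38), Vgf (0.27), Slc50a1 (0.27) and Cdh15, and below were both Slc6a20a probe sets (-0.39 and -0.24), C1qb (-0.22), Cldn11 (-0.49) and Tmod2 (-0.18). Tcim (0.23) and Dusp6 by 1387024_at (0.32) were also among the highest, without such an order. Without control replicate 3 the day 7 differences of Dusp6 were -0.14 by 1387024_at and 0.19 by 1382778_at. Slc50a1 was 7.18, 7.18 and 7.38 at day 7, against 6.94, 6.99, 7.01 and 6.98 in controls, and had the smallest unadjusted p (0.0667 by limma, adjusted p = 1.00). Cldn11 was 7.80, 8.15 and 8.30 at day 7, against 8.68, 8.65, 8.48 and 8.48 in controls. It had already been 7.85, 7.89 and 8.23 at day 3, so that its arrays of both days lay below all control arrays, while limma gave it an adjusted p of 1.00 at day 7. The gene list of 8 oligodendrocyte markers, Cldn11 among them, had array means of 7.55 to 7.64 at day 7 and 7.58 to 7.75 in controls. Which cells the Cldn11 values come from was not tested.

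At day 14 the picture depended on 1 array. With all 3 arrays the median difference from control was 0.10 and 39 of 53 probe sets were above 0, beside a median of 0.0440 over all probe sets with 1 symbol. Without replicate 2 the median was 0.02 and 29 were above 0, beside 0.000847. On replicate 2 itself, 35 members lay above every control array, against 12 and 9 on the other day 14 arrays. No share of all probe sets on single arrays is given here, so these counts are not read as a result about the members. None of the 53 was called with it or without it, as in the whole table (0%). Of the members, 5 had an unadjusted p under 0.05 (9.43%), against 13.1% of all probe sets, and the same number without the array, against 5.68%. All day 14 arrays lay below all day 1 arrays in 24 of 53 (4.01% of all probe sets with 1 symbol), and in 50 without replicate 2 (10.5%). As at day 7, these counts restate in part how day 1 was chosen.

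The members that stood highest at day 14 show that array. Fxyd3 was 7.49, 8.50 and 7.50 at day 14, against 7.26, 7.42, 7.42 and 7.20 in controls, a difference of 0.50 by limma (adjusted p = 0.365) that was 0.17 without replicate 2. Tnfrsf11b was 4.26, 4.61 and 4.26 at day 14, against 4.11, 4.14, 4.02 and 4.05 in controls, a difference of 0.30 by limma (adjusted p = 0.365) that was 0.18 without it. Fxyd3, Tnfrsf11b, Slc50a1 (0.36) and Mdfic (0.40) were the 4 members with all day 14 arrays above all control arrays (7.55%, background 5.15%). Slc50a1 and Mdfic were 0.19 and 0.20 above control without replicate 2. Cfd (0.42), Tcim (0.42) and Lamb2 (0.41) stood as high with overlapping arrays, and were 0.09, 0.02 and 0.05 above control without replicate 2. At the other end, Fxyd1 was 10.02, 8.29 and 9.95 at day 14, against 9.76, 9.98, 10.12 and 9.65 in controls, so that its difference of -0.46 became 0.11 without replicate 2. Dusp6 by 1387024_at (-0.41), C1qc (-0.37) and C1qb (-0.36) had their lowest values of 5.95, 5.75 and 5.47 on replicate 2, and without it they were 0.29, -0.01 and -0.03. With control replicate 3 also left out, that Dusp6 difference was -0.16. Plau and Tmod2 were the 2 members with all day 14 arrays below all controls (3.77%, background 3.2%). Tmod2, at -0.27, was still -0.20 without replicate 2.

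At day 49 the members again averaged near control, with wide spread. The median difference was -0.04 and 22 of 53 were above 0, beside a median of -0.0260 over all probe sets with 1 symbol. Without replicate 2 the median was 0.04 and 34 were above 0, beside -0.00741. No member was called with or without it, and no other probe set either (0%), while 2 members (3.77%) had an unadjusted p under 0.05, against 15.4% of all, and 6 without the array (11.3%), against 12%. Plvap was 7.14, 7.52 and 7.87 at day 49, against 7.17, 7.28, 7.11 and 7.08 in controls, a difference of 0.35 by limma (adjusted p = 0.306). Without replicate 1, its lowest array at day 49, Plvap was 0.54 above control (adjusted p = 0.0235 by limma). It was the only member called in that comparison (1.89% of members), where 7.84% of all probe sets were called. That call rests on replicate 2, which stands apart, and on replicate 3, whose beta-actin difference of 1.29 was the highest of the other 17 arrays. All day 49 arrays lay below all day 1 arrays in 40 of 53 (6.09% of all probe sets with 1 symbol), and in 46 without replicate 2 (10.2%). As at day 7, these counts restate in part how day 1 was chosen.

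Other members at day 49 varied between arrays. Dusp6 by 1382778_at was 7.71, 8.01 and 8.19 at day 49, a difference from control of 0.49 by limma (adjusted p = 0.306), while by 1387024_at the difference was -0.08. Without replicate 2 these were 0.47 and 0.24, and with control replicate 3 also left out they were 0.28 and -0.22. Cdkn1a (0.36), Nfil3 (0.36) and Cd163 (0.35) were also high, each with its highest array in replicate 2 (7.68, 6.21 and 4.72), and were 0.14, 0.16 and 0.15 above control without it. Col8a2 (-0.52), Enpep (-0.45), Cldn11 (-0.42), Tmod2 (-0.35) and Slc6a20a by 1369705_at (-0.35) were the lowest. Without replicate 2 they were -0.04, -0.07, -0.24, -0.03 and -0.15, and Cldn11 kept the largest of these differences. Cldn11 was 7.48, 7.80 and 9.20 at day 49, and replicate 3 lay among its day 1 arrays of 8.78, 8.94 and 9.33. Fxyd3 was the 1 member with all day 49 arrays above all control arrays (1.89%, background 4.02%) and Lgi4 the 1 with all of them below (1.89%, background 6.16%). Lgi4 was 8.49, 8.23 and 8.49 at day 49, against 8.53, 8.50, 8.70 and 8.59 in controls, a difference of -0.18 (95% confidence interval -0.38 to 0.02) that was -0.09 without replicate 2.

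The later days were also set against each other, which uses no array of the rule. In limma, 0 of 53 members were called for day 14 against day 7, day 49 against day 7, day 49 against day 14 and the F test over the 3 days, as for all probe sets (0% in each). The members with an unadjusted p under 0.05 numbered 2 for day 14 against day 7 (3.77%, against 5.4% of all) and 3 for day 49 against day 7 (5.66%, against 8.92%). They numbered 9 for day 49 against day 14 (17.0%, against 14.2%) and 4 in the F test (7.55%, against 8.5%). These shares were near those of the whole table. Without the 2 arrays that stand apart they were 7.55%, 7.55%, 9.43% and 7.55% in the same order, against 3.84%, 4.19%, 5.56% and 4.17% of all. Mdfic had the smallest p for day 49 against day 14. It was 7.79, 6.67 and 7.69 at day 49, against 7.93, 8.51 and 7.85 at day 14, a difference of -0.71 by limma (adjusted p = 0.343), with both extremes on the arrays that stand apart, and -0.15 without them. For day 49 against day 7 it was Vgf, at 7.89, 7.37 and 7.79 at day 49, against 7.92, 7.93 and 8.29 at day 7 (-0.37 by limma, adjusted p = 0.51), and -0.21 without replicate 2 of day 49. For day 14 against day 7 it was Tnfrsf11b (0.29 by limma, adjusted p = 0.606), and 0.18 without replicate 2 of day 14.

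In chromosome order, 2 sets of members are direct neighbours in the GRCr8 gene table. Fxyd1, Lgi4 and Fxyd3 follow each other on chromosome 1, and the annotated regions of Lgi4 and Fxyd3 overlap. C1qb and C1qc are next to each other on chromosome 5. Whether a probe set of Lgi4 or Fxyd3 reads both genes was not tested, and the pair parted at day 14, when Fxyd3 was 0.50 and Lgi4 0.07 above control. Without replicate 2 of day 14 those differences were 0.17 and -0.01.

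**Figure D4:**
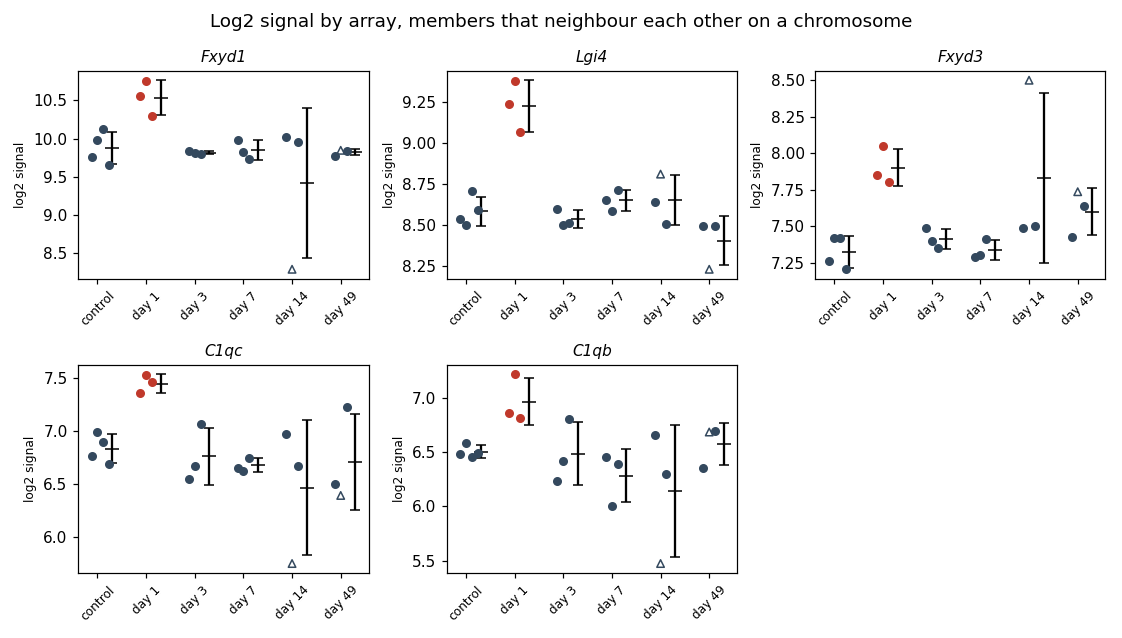
Log2 signal by array of the 5 members that neighbour another member, Fxyd1, Lgi4 and Fxyd3 on chromosome 1 and C1qc and C1qb on chromosome 5, by time group. Points are arrays, bars are mean ± SD, and open triangles are the 2 arrays that stand apart. All 5 have their 3 day 1 arrays above the control arrays, and on replicate 2 of day 14 Fxyd3 is the highest of its panel while Fxyd1, C1qc and C1qb are the lowest of theirs.

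Other genes of the same pathways, taken from lists chosen with earlier results known, moved little as groups at day 1. Of 6 LGI ligands and ADAM receptors, 1 was higher and called, which was Lgi4, and the median was -0.05. Its receptor gene Adam22 was 10.02 ± 0.13 at day 1 (SD, n = 3) and 10.17 ± 0.18 in controls (SD, n = 4). Of 11 lysophospholipid enzymes and receptors, 4 were higher and Pla1a was called (median -0.07), and of 9 spondins and thrombospondins, 6 were higher and Spon2 was called (median 0.05). The rule used this contrast and these lists were built around the 3 genes, so nothing is read from their calls. Over all 14217 genes the median was 0.00586 and 52.7% were higher.

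Lists for the acute response held more genes above than below control at day 1. They include genes set aside by name, and 14 of the 16 genes set aside met the rule on these same day 1 values. The counts are therefore in part fixed by the rule, and nothing is read from them. Of 26 glucocorticoid response genes, 20 were higher (median 0.07), 0 were called, and Mt2A and Cebpd were called without the 2 arrays that stand apart. Fkbp5 and Sgk1, classical targets of the glucocorticoid receptor, were 0.04 and 0.04 above control. Ddit4, also on this list, was 0.34 above control by its probe set just outside the threshold, and 6 genes of the list were lower. Of 32 acute phase and cytokine signalling genes, 25 were higher (median 0.09) and Lbp was called, a gene set aside by name. Of 25 reactive astrocyte genes, 19 were higher (median 0.10) and 0 were called, and Chi3l1, Cp, Steap4 and S1pr3, all set aside by name, were called without the 2 arrays. The genes of these 3 lists that were called in either fit are thus all among those set aside by name, and Cdkn1a is the 1 member that any of the 3 lists holds.

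The cell type lists had few calls at day 1. Astrocyte markers (11 of 15 higher, median 0.03), oligodendrocyte markers (5 of 8, median 0.05), neuron and layer V markers (7 of 13, median 0.01) and blood cell markers (3 of 9, median -0.06) had 0 called with and without the 2 arrays. Endothelial and pericyte markers (10 of 13, median 0.15) had 0 called, and Abcg2, itself a member, alone was called without the 2 arrays. Microglia and macrophage markers (8 of 13, median 0.04) likewise had 0. Of 12 meningeal and choroid plexus markers 5 were higher (median -0.09), and Lum, a proteoglycan of the meninges, was called lower without the 2 arrays. Lum was 9.35 ± 0.42 at day 1 (SD, n = 3) and 10.27 ± 0.13 in controls (SD, n = 4). Array means of the meningeal list were 7.83 to 8.13 at day 1 and 7.89 to 8.23 in controls, and at day 49 they ranged over 7.65 to 8.18.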

How the data were processed

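Signals were deposited by the authors as log2 values for each probe set, made with RMA per the submitters' processing notes (version not given in the sources used here) from 6 ug of total RNA per array per the labels. Because RMA gives all arrays a common distribution, a change shared by all transcripts cannot be detected. Of 31099 probe sets, 57 array controls were left out and 31042 tested. Platform symbols were updated through a RefSeq gene table, 20758 by gene ID and 2 by accession.

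All 6 groups were fitted together with limma 3.58.1 in R 4.3.3 (13 residual and 2.76 prior degrees of freedom, eBayes defaults, two-sided, Benjamini-Hochberg over all probe sets, threshold 0.05), and the code was tested on simulated data. Replicates are separate samples by the labels, and p-values measure the spread between them. Their number limits the precision, and scan batches were not analysed here. Same-numbered arrays deviated together for day 1 and control (correlations of deviations 0.166, 0.117 and 0.269). They also did so for day 7 and control (0.0935, 0.115 and 0.265). In every other comparison of the later days the correlations differed in sign between replicates.

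Genes were named by a rule: the markers Spon2, Pla1a and Lgi4, the 25 tallest members, those nearest the threshold, the smallest p and the most extreme differences at later days, and up to 4 genes per list. Others were named after their values were seen. The members and lists were chosen with earlier results of these data known. Roles were assigned by hand. Alternatives covered normalization, filters, variance model, array weights, left-out arrays and the replicate block. For Dusp6, leaving out control replicate 3 together with the arrays that stand apart was chosen after seeing the data.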

Additional observations from a re-analysis of the deposited data

Results flagged for a closer look

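In the control group of 4 arrays, the gap between the most distant array and its nearest neighbour, as a share of the range, was tested in each of the 53 member probe sets, and chance flags about 1 in 20 groups. It was large in 3 of 53. All 3 concerned an array below the rest. In Dusp6, control replicate 3 stood at 6.39, against 8.19 to 8.26 on the other control arrays, by 1387024_at (share 0.966), and at 6.89, against 7.60 to 7.74, by 1382778_at (share 0.842). In Cryab, control replicate 4 stood at 10.15, against 10.56 to 10.65 (share 0.832). With that control array left out, Dusp6 by 1387024_at and Cryab no longer met the rule, while Dusp6 by 1382778_at still did.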

How the results depend on the processing

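The number of members was 53 with the rule as given, 111 at a height of 0.25 and 14 at 0.5, and between 52 and 81 with 1 control, day 1 or day 3 array left out (81 without day 1 replicate 1, of which 50 were among the 53). It was 63 with the replicate block, 49 of them shared. The 0 calls of later days held under every setting run, the replicate block included, with these exceptions. With array weights, 6 members were called for day 49 against control (21% of all probe sets), 6 for day 49 against day 14 (9.62%), 9 for day 49 against day 7 (18.9%) and 10 in the F test (15.6%). At day 49 those were Plvap (0.61), Cdkn1c (0.61), Dusp6 by 1382778_at (0.54), Cd163 (0.37), Fxyd3 (0.30) and Mgst2 (0.50, adjusted p = 0.00153 by limma). Without weights the Mgst2 difference was -0.01 with all 3 day 49 arrays (6.17, 5.52 and 6.68) and 0.30 without replicate 2. Plvap, Cdkn1c, Dusp6 by 1382778_at and Mgst2 had their highest day 49 array in replicate 3, and Cd163 and Fxyd3 in replicate 2. The cause of these calls was not tested. With 1 array left out, between 0 and 1 members were called for day 49 against control, the 1 without day 49 replicate 1, where 7.84% of all probe sets were called. The counts of the contrasts that chose the members moved most: day 1 against control gave 26 with array weights (0.564% of all), and day 3 against day 1 gave 43 with array weights (1.58%), 5 of 46 with 1 probe set per gene (0.0703%), 1 without day 1 replicate 1 (0.0129%) and 0 without day 3 replicate 1 (0.00322%) or 2 (0.00644%). The median member difference with 1 array left out ranged from -0.015 to 0.036 at day 7, 0.023 to 0.174 at day 14 and -0.081 to 0.035 at day 49. Control, day 1 and day 3 arrays number 10 in all, so the membership of the 26 members that drop out with 1 of them is uncertain.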
